A study of Mus musculus with 6 samples.

Results

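Genes of sterol efflux and of the liver X receptor (LXR) response were followed in mouse liver lacking AEG-1 in hepatocytes. They were chosen by symbol, as sterol exporters and other LXR targets, and all 10 were found among the 46983 gene rows of the count table. They are the exporters Abca1, Abcg1, Abcg5 and Abcg8, the lysosomal sterol carriers Npc1 and Npc2, and the LXR targets Lpcat3, Mylip, Smpdl3a and Arl4c. The knockout group consisted of livers of AEG-1DHEP mice, in which a floxed AEG-1 gene was deleted in hepatocytes, so that the other cells of the liver kept the gene. The control group consisted of livers of AEG-1fl/fl mice, which carry the floxed gene without the deletion and whose titles call them wild type. Both groups were 12 weeks old, on a C57BL/6 background, chow-fed and untreated, and the promoter that drove the deletion is not given in the sources used here. The labels describe 3 mice per group, as biological replicates.

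LXRs are nuclear receptors that bind oxysterols, pair with the retinoid X receptor (RXR) on DNA and switch on genes that move cholesterol out of cells. In hepatocytes these include Abca1, which loads cholesterol and phospholipid onto apolipoprotein A-I to begin a high-density lipoprotein particle, and Abcg5 with Abcg8, whose proteins form 1 transporter that secretes sterols into bile. LXRs also drive fatty acid synthesis through Srebf1. AEG-1, encoded by Mtdh, has been described as binding RXR through an LXXLL motif and restraining RXR-dependent transcription, which is the question these genes bear on.

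Control replicates 1 and 2 held the same count in each of the 46983 rows. The pair differed by less than sampling noise and counts here as 1 sample, control replicate 1. This left 3 knockout and 2 control libraries, with totals of 29557477 to 33685670 counts. Chi-square values for pairs of distinct libraries, per degree of freedom, ran from 44.5 to 227, and the pair of control libraries had the highest. Mtdh had 89, 74 and 76 counts in the knockout libraries, against 1529 and 1612 in the control libraries, a log2 fold change of -4.36 (SE 0.15, adjusted p 0.000564 by edgeR's quasi-likelihood test), so every library went with its label.

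Regulatory sequence is shown for the exporters on which the bile and lipoprotein routes depend, from RefSeq promoter windows on GRCm38.p6. Windows were found for 7 of the 10 genes, and not for Abcg1, Smpdl3a and Npc1. LXR with RXR binds repeats of AGGTCA spaced by 4 bases, an element called DR4 (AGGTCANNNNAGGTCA), which was searched on both strands over windows of 250 bases before and 50 bases after each start. The Abca1 stretch lies at chr4:53159896-53160015, minus strand, and ends at the base before the start. Capitals mark its closest match to DR4, which differs from the 12 letters compared at 3 of them, begins 67 bases before the start and lies on the opposite strand. The second sequence is the stretch between the starts of Abcg5 and Abcg8 at chr17:84683012-84683120, plus strand, from which Abcg5 is read to the left and Abcg8 to the right. The Abcg8 start used here is that of its RefSeq window with the highest position, 84683121. In the count table the annotated span of Abcg8 begins at 84676302, inside that of Abcg5, and so includes this stretch. Capitals mark AGATAA, the core of the site bound by GATA factors, read on the opposite strand.
Abca1: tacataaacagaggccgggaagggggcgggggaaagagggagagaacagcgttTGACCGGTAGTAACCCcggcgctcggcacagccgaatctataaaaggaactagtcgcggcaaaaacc
Abcg5-Abcg8: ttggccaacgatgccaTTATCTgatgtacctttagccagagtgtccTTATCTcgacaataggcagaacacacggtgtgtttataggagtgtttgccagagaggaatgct
A DR4 match with up to 3 differing letters was found in 21.9% of 32851 promoter windows. Among the members, Abca1 and Arl4c held one, and no member held one with up to 2 differing letters, a class found in 3.02% of the windows. The 2 AGATAA matches lie within 109 bases, and 3.98% of windows held at least 1 in the 109 bases before the start and 0.177% at least 2. This motif was chosen after the sequence had been seen. A match describes the letters of a window and is not evidence of binding, and the lack of one says nothing about sites outside these windows.

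None of the 10 sterol efflux and LXR target genes passed the test between knockout and control livers. By edgeR's quasi-likelihood test 0 of 10 passed the adjusted threshold of 0.05 in either direction, beside 0.00608% of the 16441 genes tested (Mtdh alone), and all 10 had an adjusted p of 1 when rounded. At an unadjusted p under 0.05 there were also 0 of 10 by edgeR, against 3.43% of all genes. At the same cut DESeq2 gave 0 of 10, beside 518 of the 26848 genes with any count. By limma-voom it was 0 of 10, beside 541 of 16441. After adjustment DESeq2 also called 0 of 10, beside 0.0885% of all genes, and limma-voom 0 of 10, beside 0.00608%. The log2 fold changes ran from -0.35 to 0.26 with a median of -0.01, and the median over all tested genes was 0.01. Expression of single genes is given as CPM, counts scaled to library size after TMM (trimmed mean of M values) correction. All knockout libraries exceeded all control libraries in 0 of 10 members, beside 8.16% of all tested genes, and all lay below them in 1 of 10, beside 8.72%.

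**Figure D1:**
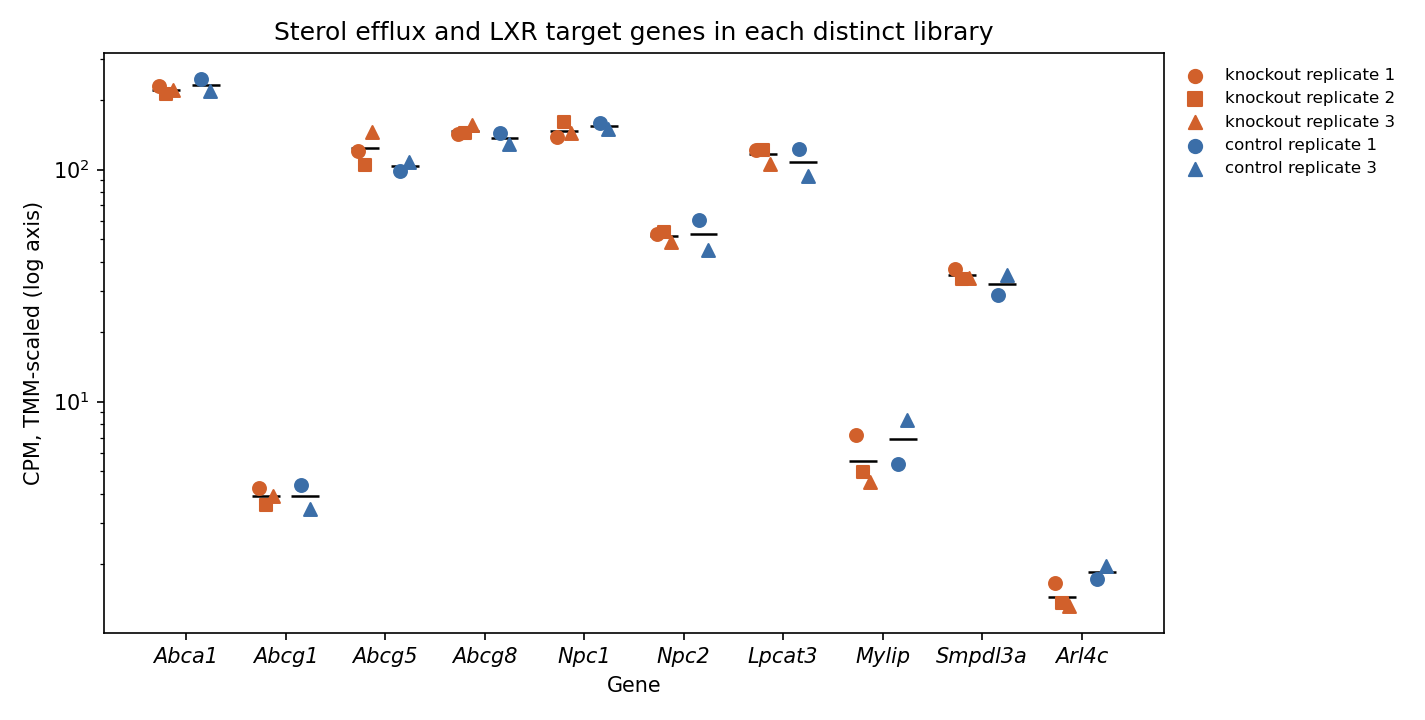
CPM of each of the 10 genes (log axis) in the 3 knockout libraries (orange, left) and the 2 distinct control libraries (blue, right), with marker shape for the replicate number and a black bar for the group mean. The groups overlap in 9 of the 10 genes, and in Arl4c the knockout libraries (1.31 to 1.66 CPM) lie below the control libraries (1.73 and 1.97 CPM).

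Abca1 (ENSMUSG00000015243, chromosome 4, 53030787 to 53159895 on GRCm38) had the most counts per library of the 10. It had 7055, 7030 and 7025 counts in the knockout libraries and 7794 and 6455 in the control libraries, or 229.7, 212 and 219.5 CPM in knockout against 245 and 219 CPM in control livers. The control libraries thus lay on either side of the knockout libraries in counts, and the knockout libraries were closer to each other than the control libraries were. Its log2 fold change was -0.07 (SE 0.13), with a 95% interval of -0.37 to 0.23, which is a 0.771-fold to 1.17-fold level.

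Abcg1 (ENSMUSG00000024030, chromosome 17) encodes a half-transporter that passes cholesterol to mature high-density lipoprotein and is best known from macrophages. It was scarce in whole liver, with 4.23, 3.59 and 3.91 CPM in the knockout livers and 4.36 and 3.46 CPM in the control livers, from 102 to 139 counts per library. The group means were 3.91 ± 0.321 CPM (SD, n = 3) in knockout and 3.91 ± 0.643 CPM (SD, n = 2) in control livers. Both control libraries lay outside the range of the knockout libraries, one above and one below. This gave a log2 fold change of -0.0013 (SE 0.19, 95% interval -0.46 to 0.46).

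Abcg5 (ENSMUSG00000040505, chromosome 17, 84658234 to 84683011, minus strand) had the highest log2 fold change of the 10. It had 120.3, 105 and 145 CPM in the knockout livers and 99.0 and 107.5 CPM in the control livers. Knockout replicates 1 and 3 lay above both control libraries and knockout replicate 2 lay between them, so the groups overlapped. A log2 fold change of 0.26 (SE 0.17, 95% interval -0.14 to 0.65) did not pass (unadjusted p 0.166 in the edgeR fit).

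Abcg8 (ENSMUSG00000024254, chromosome 17, 84676302 to 84700333, plus strand), the partner of Abcg5 in the biliary transporter, had 142, 143 and 155 CPM in the knockout livers and 144 and 129 CPM in the control livers. Knockout replicate 3 was the highest library for both genes, while the lowest was control replicate 3 for Abcg8 and control replicate 1 for Abcg5. For Abcg8 the log2 fold change was 0.10 (SE 0.12, 95% interval -0.19 to 0.40).

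Because both proteins are needed for the transporter, the level of Abcg5 was set against that of Abcg8, each per kilobase of exon. The ratio was 1.17, 1.01 and 1.295 in the knockout libraries and 0.950 and 1.15 in the control libraries, each from the summed exon length of the table. With the length of the longest protein-coding transcript, tried after the data had been seen, it was 1.32, 1.14 and 1.46 in the knockout libraries and 1.07 and 1.30 in the control libraries, so the distance from equal levels depends on the length used. On the log2 scale the ratio from the summed exon length averaged 0.21 ± 0.18 (SD, n = 3) in knockout and 0.07 ± 0.20 (SD, n = 2) in control livers. The difference of 0.14 had an exact permutation p of 0.4, two-sided, where 3 against 2 libraries allow no p under 0.1. The annotated exons of these genes share 82 bases on opposite strands, and whether the authors counted by strand is not given in the sources used here.

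**Figure D2:**
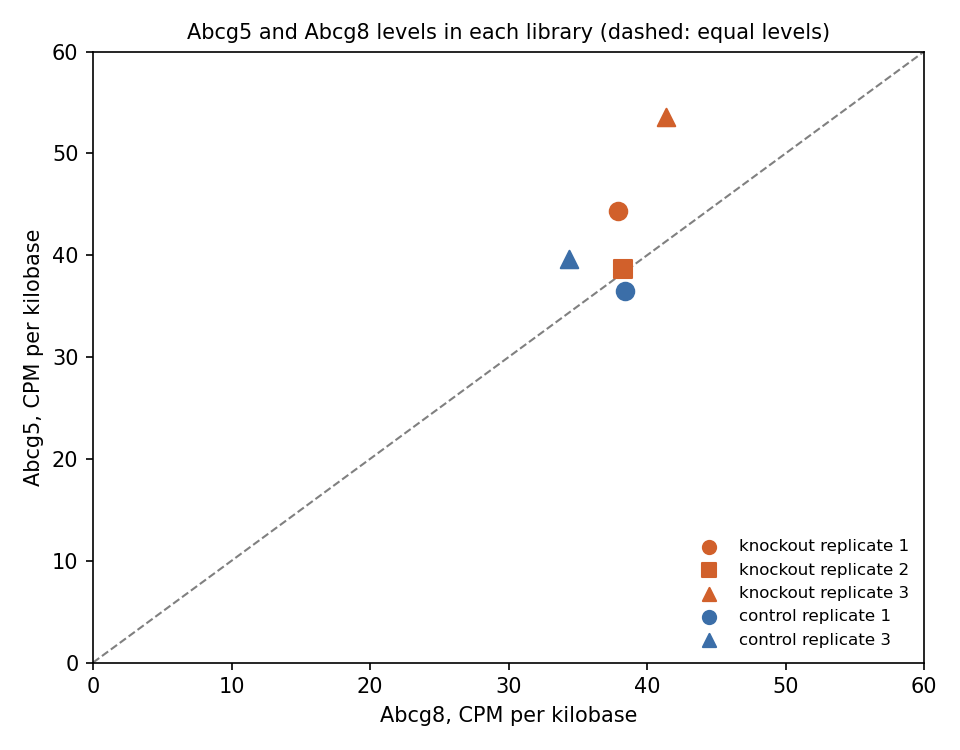
Level of Abcg5 against Abcg8 in CPM per kilobase of exon, 1 point per library (orange, knockout; blue, control), with a dashed line of equal levels. With the summed exon length of the table the ratio runs from 0.950 in control replicate 1 to 1.295 in knockout replicate 3.

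Npc2 and Npc1 hand cholesterol released in the lysosome across its lumen and out through its membrane, and defects of either cause Niemann-Pick disease type C. Npc1 (ENSMUSG00000024413, chromosome 18) had 138, 159.6 and 144 CPM in the knockout livers and 159 and 149 CPM in the control livers. The highest and the lowest library were both knockouts, so the control libraries fell inside the range of the knockout group. Its log2 fold change was -0.06 (SE 0.13, 95% interval -0.36 to 0.24), and its exons share 192 bases with Rmc1 and 90 bases with Gm15956 on the opposite strand.

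Npc2 (ENSMUSG00000021242, chromosome 12) had 52.7, 54.0 and 48.8 CPM in the knockout livers and 60.6 and 44.9 CPM in the control livers. Here the highest and the lowest library were both controls, 1.35 times apart. Its log2 fold change was -0.02 (SE 0.15, 95% interval -0.39 to 0.34). For both lysosomal carriers, the mean of each group lay within 1 SD of the mean of the other.

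Lpcat3 (ENSMUSG00000004270, chromosome 6) encodes the acyltransferase that places polyunsaturated fatty acids in membrane phospholipids and is an LXR target in liver. It had 122, 121 and 106 CPM in the knockout livers and 122 and 93.9 CPM in the control livers. Again both extremes were controls, which differed by a factor of 1.30. Lpcat3 had a log2 fold change of 0.10 (SE 0.16, 95% interval -0.27 to 0.48). Its exons share 334 bases with Emg1 on the opposite strand.

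Mylip, also called Idol, encodes a ubiquitin ligase that LXRs induce and that sends lipoprotein receptors to degradation. Mylip (ENSMUSG00000038175, chromosome 13) had 7.16, 4.95 and 4.50 CPM in the knockout livers and 5.40 and 8.37 CPM in the control livers, from 144 to 247 counts per library. It was the most variable member, with a factor of 1.59 between the knockout libraries, and control replicate 1 lay inside the knockout range. Its log2 fold change was -0.31 (SE 0.28), and the 95% interval, -0.98 to 0.35, had the lowest bound of the 10. Of the receptor genes whose proteins Mylip degrades, Vldlr had 0.969 to 2.90 CPM in the knockout livers and 2.64 and 0.373 CPM in the control livers, and Lrp8 was too scarce to be tested.

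Smpdl3a (ENSMUSG00000019872, chromosome 10) encodes a secreted phosphodiesterase related to acid sphingomyelinase, described as an LXR target in human macrophages. It had 37.3, 33.9 and 34.0 CPM in the knockout livers, against 28.9 and 35.1 CPM in the control livers. In raw counts the groups did not overlap (1147, 1122 and 1087 in knockout, 921 and 1036 in control libraries), but after scaling control replicate 3 lay among the knockout libraries. Smpdl3a had a log2 fold change of 0.13 (SE 0.12, 95% interval -0.17 to 0.43).

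Arl4c (ENSMUSG00000049866, chromosome 1), a small GTPase of the ARF family and an LXR target, was the rarest member and the only 1 of the 10 whose groups did not overlap in CPM. It had 1.66, 1.36 and 1.31 CPM in the knockout livers and 1.73 and 1.97 CPM in the control livers. Over all tested genes the groups did not overlap, in either direction, in 16.9%, so 1 of 10 is not a result about these genes. The counts were 51, 45 and 42 in knockout and 55 and 58 in control libraries, and the exact Poisson 95% interval of knockout replicate 1 alone was 37.97 to 67.1 counts, which covers counting error only. The log2 fold change of -0.35 (SE 0.23, 95% interval -0.91 to 0.21) did not pass (unadjusted p 0.176 in the edgeR fit).

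Markers of other liver cells are given beside Arl4c and Abcg1, which are not specific to hepatocytes. In bulk tissue, fewer cells of a type and less RNA per cell cannot be told apart. Of 10 sinusoidal endothelial markers 10 had a log2 fold change below 0, while 52.1% of all tested genes were above 0. Their summed level was 232.5 to 316 CPM in the knockout and 299 and 360.4 CPM in the control livers. All knockout libraries lay below both control libraries in 5 of these 10, beside 8.72% of all tested genes. The same held for 0 of 13 Kupffer cell and macrophage markers and 1 of 10 stellate markers. Of 13 Kupffer cell and macrophage markers 12 were below 0, with sums of 417 to 509 CPM in the knockout and 455 and 558 CPM in the control livers. The 10 hepatocyte markers, Alb among them, summed to 87580 to 99030 CPM in the knockout and 113500 and 81830 CPM in the control livers, with 3 above 0 and 7 below. For stellate cells 8 of 10 were below 0, with sums of 287.5 to 388 CPM in the knockout livers and 354 and 362 CPM in the control livers. The summed markers of cholangiocytes (50.2 to 56.5 CPM in knockout livers, against 37.0 and 58.4 CPM in control livers), T and NK cells (1.75 to 2.93, against 2.70 and 3.46), B cells (4.75 to 6.46, against 8.85 and 4.78), neutrophils (1.00 to 1.24, against 2.58 and 1.49), adipocytes (11.4 to 31.8, against 12.3 and 13.99) and erythroid cells (420.0 to 537, against 667 and 499) were low beside those of hepatocytes. The adipocyte sum came mostly from Plin4 and Fabp4, while Adipoq, Plin1 and Lep had at most 1 count per library. Plin4 had 12.4, 21.2 and 6.19 CPM in the knockout livers and 4.77 and 6.71 CPM in the control livers. The cholangiocyte sum came mostly from Spp1, so neither sum follows its list as a whole. No marker was at 0 in all libraries and none passed the edgeR threshold. Their part in the values of the members was not tested.

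**Figure D3:**
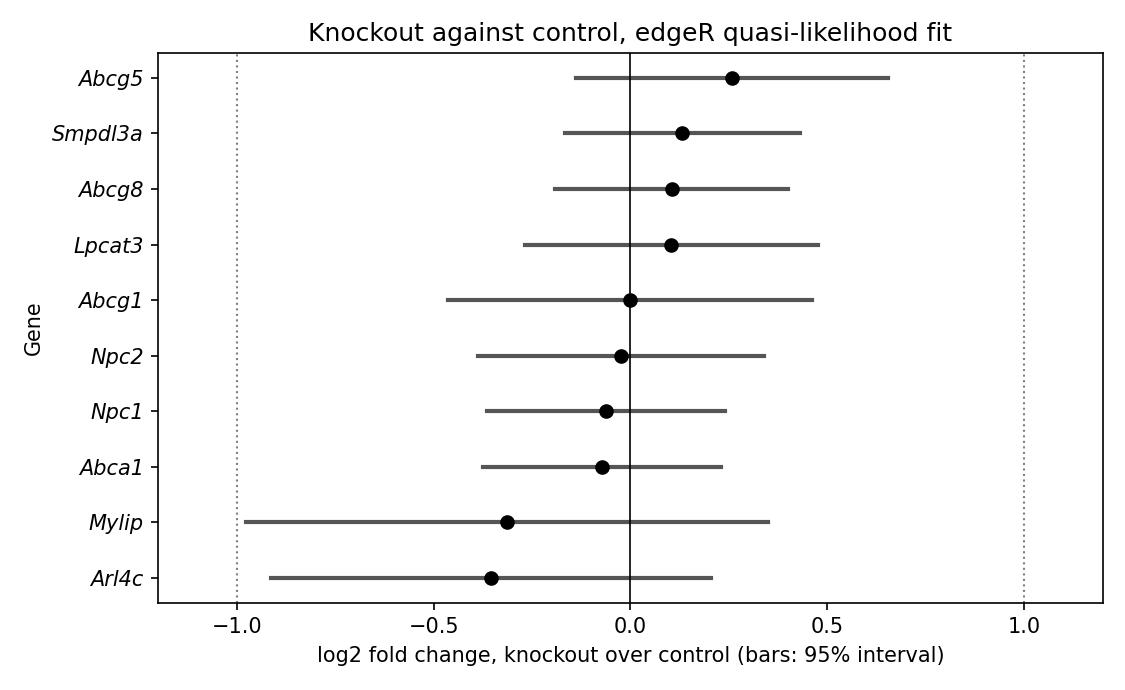
log2 fold change of each member, knockout over control, as a point with its 95% interval from the edgeR quasi-likelihood fit on 3 knockout and 2 control libraries, and dotted lines at a doubling and a halving. Every interval contains 0 and lies inside the dotted lines, and the widest belongs to Mylip (-0.98 to 0.35).

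The intervals give the size of change that these libraries leave room for. All 10 lay within 1 log2 unit of 0, as did those of 74.8% of all tested genes, and 7 of 10 lay within a 1.5-fold change in either direction. The 3 with wider intervals were Abcg5, whose upper bound was a 1.57-fold level, and Mylip and Arl4c, whose lower bounds were a 0.508-fold and a 0.531-fold level. The bounds are no detection limits of the test, since Fasn, with a log2 fold change of 1.15, had an edgeR adjusted p of 0.970.

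The spread between mice of 1 genotype was larger than the difference between genotypes for most members. In 8 of 10 the control libraries differed from each other by more log2 units than the size of the log2 fold change, the exceptions being Abcg5 and Arl4c, and the same held for 66.7% of all tested genes. The median log2 distance between the control libraries was 0.23 for the members and 0.23 for all tested genes. The members thus varied between the control mice about as much as a gene of this table does.

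**Figure D4:**
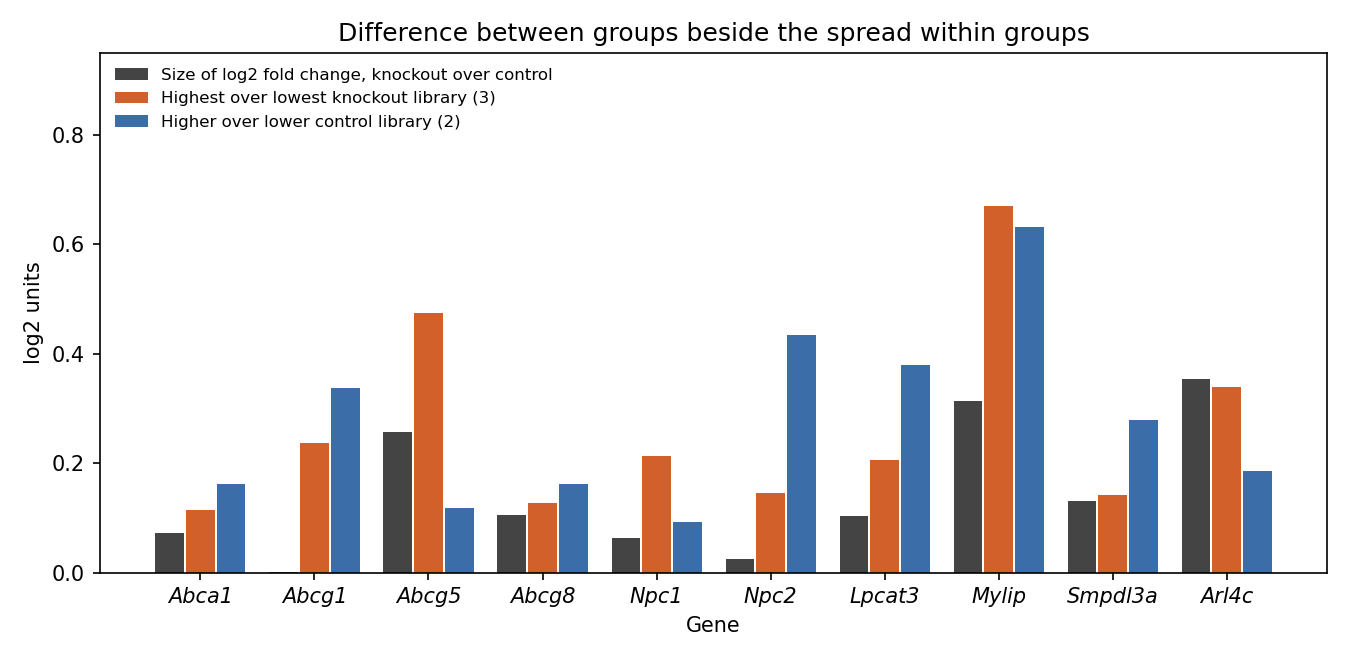
For each member, the size of the log2 fold change between the genotypes (grey), the log2 ratio of the highest to the lowest of 3 knockout libraries (orange) and of the higher to the lower of 2 control libraries (blue). The grey bar is lower than the blue bar in 8 of 10 genes, with Abcg5 (0.26 against 0.12) and Arl4c (0.35 against 0.19) as the exceptions.

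Levels of the members differed widely per kilobase of exon and had the same order in both genotypes, apart from Smpdl3a and Npc2. Abcg5 (45.5 ± 7.57 CPM per kilobase in knockout, 38.1 ± 2.20 in control livers), Abcg8 (39.2 ± 1.94, against 36.4 ± 2.88) and Lpcat3 (35.5 ± 2.78, against 33.1 ± 6.10; SD, n = 3 and 2 throughout) stood highest, and their ranges over the libraries overlapped. Abca1 followed with 21.3 ± 0.852 in knockout and 22.4 ± 1.78 in control livers, clear of its neighbours on both sides. Smpdl3a (16.98 ± 0.960, against 15.5 ± 2.12), Npc2 (15.9 ± 0.831, against 16.2 ± 3.41) and Npc1 (13.7 ± 1.05, against 14.3 ± 0.651) overlapped each other. Mylip (1.81 ± 0.466, against 2.25 ± 0.685), Abcg1 (0.962 ± 0.0790, against 0.962 ± 0.158) and Arl4c (0.263 ± 0.0345, against 0.336 ± 0.0306) stood far below, and their ranges did not overlap. These levels use the summed exon length of the table. With the length of the longest protein-coding transcript in GENCODE M21, tried after the data had been seen, Npc1 averaged 28.7 CPM per kilobase over all 5 libraries, in place of 13.97, and passed Abca1 (21.9), and Lpcat3 (49.5) stood beside Abcg5 (49.1).

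The receptors and coregulators that act on these genes gave no call either. Of 16 LXR receptor and coregulator genes 0 passed the edgeR test, 8 had a log2 fold change above 0 and 8 below, and the median was 0.01. Nr1h3, the liver-enriched LXR-alpha, had 104, 102 and 109 CPM in the knockout livers and 112.5 and 106.5 CPM in the control livers, and Rxra had 444.5, 408 and 476 CPM in the knockout livers and 468 and 479 CPM in the control livers. The smallest unadjusted p of the list belonged to the coactivator Ncoa3, with 27.2, 27 and 33.2 CPM in the knockout livers and 35.4 and 34.9 CPM in the control livers (log2 fold change -0.27, SE 0.13). The log2 fold changes of Rxrg (0.43, SE 0.23) and Ncoa2 (-0.19, SE 0.11) were not past the threshold.

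LXR targets of lipogenesis and lipoproteins are given beside the exporters because the same receptors serve both. Of 15 genes 13 had a log2 fold change above 0, with a median of 0.27, and 0 passed by edgeR over all genes, while 52.1% of all tested genes were above 0 with a median of 0.01. In 8 of the 15, against 18.7% of all tested genes, control replicate 1 was above control replicate 3 and knockout replicate 3 was the lowest knockout library. The part of these library differences in the values of the list was not tested. Fasn, the fatty acid synthase, had 1504, 1197 and 1253 CPM in the knockout livers and 586 and 601 CPM in the control livers, so the groups were apart by more than either spread. Its log2 fold change of 1.15 (SE 0.17) had an edgeR adjusted p of 0.970 and a DESeq2 adjusted p of 3.98e-09. Srebf1, the LXR target through which fatty acid synthesis is driven, overlapped, with 644, 345.5 and 632 CPM in the knockout livers and 389 and 442 CPM in the control livers. The log2 fold changes were 1.56 (SE 0.75) for Pnpla3, a lipase of lipid droplets, and -0.51 (SE 0.33) for Lpl, the lipoprotein lipase. Both moved with single libraries, with Pnpla3 at 0.78 without knockout replicate 2 and 2.56 without control replicate 1, and Lpl at 0.23 without control replicate 1. Cyp7a1, the rate-limiting enzyme of bile acid synthesis and an LXR target in mice, ran from 39.2 to 307 CPM among the knockout livers, against 114 and 146 CPM in the control livers. A difference between the lipogenic genes and the exporters was not tested.

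**Figure D5:**
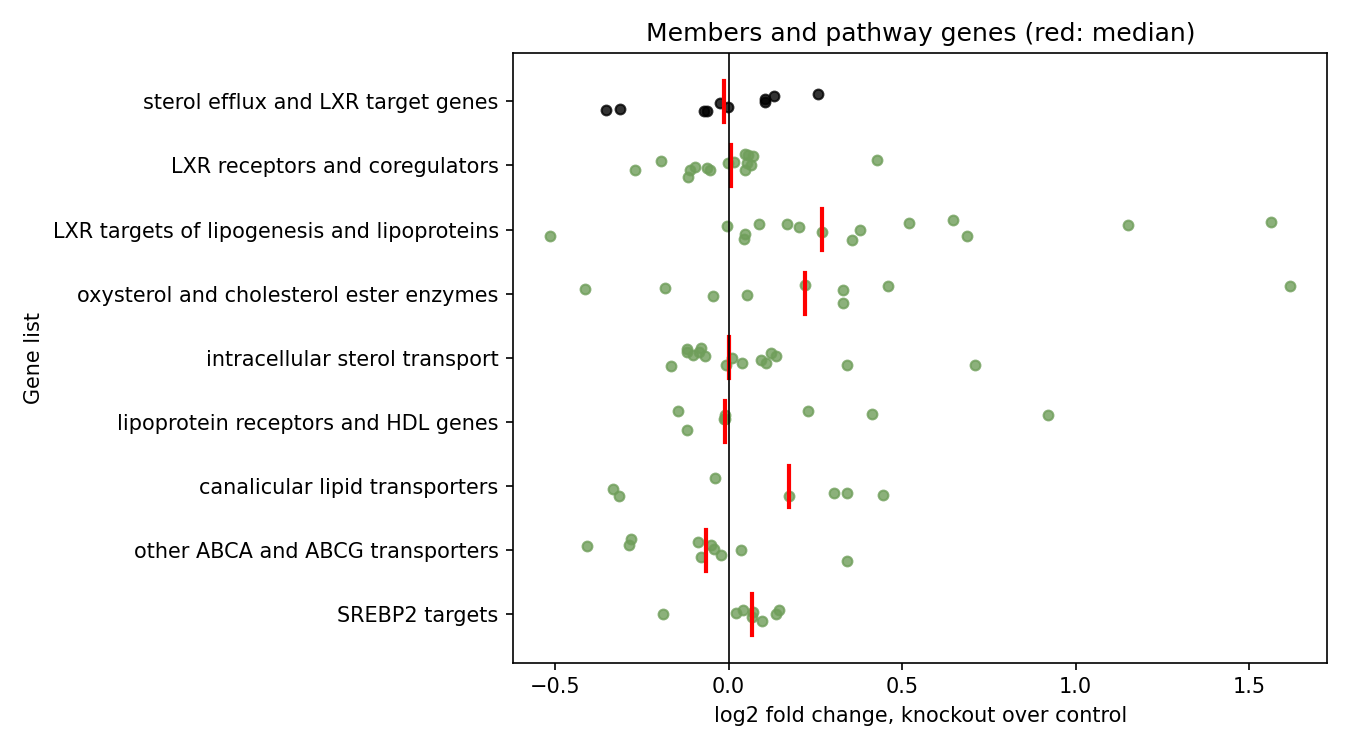
log2 fold change, knockout over control, of every tested gene of the 10 members (black, top row) and of 8 surrounding lists (green), with the median of each list in red and points spread vertically to separate them. The members lie between -0.35 and 0.26, while the lipogenic list reaches 1.56 (Pnpla3) and the oxysterol list 1.62 (Cyp46a1).

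Enzymes that make or remove the oxysterols and sterol esters around LXR gave no call. Of 12 genes 9 were tested, 6 were above 0 and 3 below, with a median of 0.22. Ch25h, Sult2b1 and Hsd3b7 did not pass the filter on low counts, with Hsd3b7 listed at 0 in every library. Whether that 0 reflects the expression of Hsd3b7 or the way reads were assigned to genes was not tested. Cyp46a1, a cholesterol hydroxylase known from brain, had 10.4, 18.4 and 6.31 CPM in the knockout livers and 2.51 and 5.12 CPM in the control livers (log2 fold change 1.62, SE 0.51). Its groups did not overlap, and its unadjusted p of 0.0167 in the edgeR fit did not survive adjustment (adjusted p 1). The log2 fold change of Cyp46a1 fell to 1.13 when knockout replicate 2 was dropped. It rose to 2.22 when control replicate 3 was dropped. The log2 fold changes were 0.46 (SE 0.17) for Nceh1, a neutral cholesterol ester hydrolase, and 0.33 (SE 0.16) for the bile acid enzyme Cyp27a1. Nceh1 moved between 0.20 without control replicate 1 and 0.77 without control replicate 3. All knockout libraries lay above both control libraries in Cyp46a1, Nceh1 and Cyp27a1, 3 of the 9 tested genes, beside 8.16% of all tested genes.

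Genes that carry sterol within the cell, take it up or share the canalicular membrane with Abcg5 and Abcg8 gave 0 calls by edgeR. Among 16 intracellular carriers 8 were above 0 and 8 below (median 0.0009). Tmem97, a membrane protein that binds Npc1, had 43.2 CPM in the knockout livers and 34.1 CPM in the control livers (log2 fold change 0.34, SE 0.11). The log2 fold change was 0.71 (SE 0.54) for Osbpl5 and -0.10 (SE 0.12) for Osbpl1a. Osbpl5 moved between 0.26 without control replicate 1 and 1.35 without control replicate 3. Of 8 tested lipoprotein receptor and HDL genes 3 were above 0 (median -0.01), and Lipg, the endothelial lipase, had 38.8, 22.3 and 43.6 CPM in the knockout livers and 11.4 and 25.6 CPM in the control livers. Its log2 fold change was 0.92 (SE 0.40) and moved between 0.45 without control replicate 1 and 1.62 without control replicate 3, beside 0.23 (SE 0.16) for Apoa2, an HDL apolipoprotein, and -0.15 (SE 0.12) for Scarb1, the HDL receptor. Of 7 canalicular transporters 4 were above 0 (median 0.17), with log2 fold changes of 0.45 (SE 0.16) for Abcb1a, -0.32 (SE 0.14) for the phospholipid flippase Atp8b1 and 0.30 (SE 0.18) for the conjugate exporter Abcc2. Abcb4, which supplies the biliary phospholipid that accompanies sterol from Abcg5 and Abcg8, had 257.5, 269.8 and 208.5 CPM in the knockout livers and 179.7 and 255 CPM in the control livers.

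The relatives of the exporters gave 0 calls as well. Of 12 other ABCA and ABCG genes 10 were tested, and 8 of them had a log2 fold change below 0, with a median of -0.07. The smallest unadjusted p belonged to Abcg3 (log2 fold change -0.41, SE 0.23), Abca6 (-0.28, SE 0.17) and Abca9 (-0.29, SE 0.17). Targets of SREBP2, the factor that raises cholesterol synthesis and uptake when sterol is scarce, had 7 of 8 above 0 with a median of 0.07 and 0 called. All 8 had control replicate 1 above control replicate 3 and knockout replicate 3 as the lowest knockout library, against 18.7% of all tested genes. The part of these library differences in the values of the list was not tested. The targets of smallest p were Idi1, an isomerase of sterol synthesis (log2 fold change -0.19, SE 0.24), Fdft1, the squalene synthase (0.14, SE 0.30), and Cyp51, the lanosterol demethylase (0.10, SE 0.23).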

How the data were processed

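For RNA from whole liver, the authors deposited raw counts per gene in 1 table. Per the submitters' processing notes, the tools were featureCounts 1.4.6-p4, Subread 1.4.6-p4, Trimmomatic 0.33 and FastQC, on mm10 (GRCm38). How strand was treated, and which annotation release was used, is not given in the sources used here. Per the file headers, each row gives a gene length, the summed exons in bases. Symbols came from GENCODE M21, which named 46488 of 46983 rows and left 495 unnamed.

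Genes were kept by filterByExpr and scaled by TMM, and groups were compared by the two-sided quasi-likelihood F test of edgeR on 3 knockout and 2 distinct control libraries, with Benjamini-Hochberg adjustment over 16441 genes and a threshold of 0.05. Standard errors come from the F statistic. Versions were Python 3.11.15, edgeR 4.0.16, DESeq2 1.42.0, limma 3.58.1 and R 4.3.3. Code was tested on simulated data. Named genes were the 10 members, Mtdh and the 3 genes of smallest p of each of 8 pathway lists; others were chosen after their values were seen. Values of 3 other pathway genes are not reported here, and the lists leave them out. The members and lists were chosen with earlier results of these data known. Lists were described by counts and medians, without a set test. Alternatives covered scaling, filter, tool, prior, the duplicate column, a replicate block and each library left out.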

Additional observations from a re-analysis of the deposited data

How the results depend on the processing

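The count of members called was 0 under all 14 alternatives. Over these, 128 of 140 log2 fold changes of members kept their direction, and Abcg5, Abcg8, Arl4c and Npc1 never changed sign. Leaving out 1 library at a time gave ranges of -0.15 to 0.0070 for Abca1, -0.16 to 0.17 for Abcg1, -0.60 to 0.0375 for Mylip, -0.0706 to 0.30 for Lpcat3, -0.0064 to 0.28 for Smpdl3a, -0.22 to 0.20 for Npc2, -1.001 to 0.23 for Lpl, -0.42 to 0.0361 for Idi1, -0.24 to 0.65 for Fdft1, -0.12 to 0.31 for Cyp51, -0.0618 to 0.45 for Abcb4, -0.38 to 2.42 for Vldlr, -0.47 to 0.93 for Hmgcs1 and -0.12 to 1.01 for Abcg2, and none of these passed the threshold. Most sign changes came without control replicate 1 or 3. Abcg1 was also above 0 with library totals only (0.0094), with limma-voom (0.000923), without a low-count filter (1.87e-05) and with the replicate block (0.0648), and Hmgcs1 was below 0 on all 6 columns as deposited (-0.13) and with the block (-0.26), as was Cyp51 with the block (-0.11). The count over all genes was 1 by edgeR, 18 by DESeq2, 3 without a low-count filter and 1 to 6 without 1 library, the 6 being without control replicate 3. With the replicate block it was 0, with 771 genes at an unadjusted p under 0.05, and Mtdh had an adjusted p of 0.0517 by edgeR. The labels do not say that a replicate number marks a shared litter or day, so the numbers were not taken to pair the mice. The deviations of same-numbered libraries correlated at 0.0605 and 0.155. Only 2 numbers are shared, and the deviations of 2 control libraries mirror each other, so these values cannot decide on pairing. Chi-square per degree of freedom was 84.45 and 49.38 for the same-numbered knockout and control pairs, against 91.08 to 156.5 for differently numbered ones. DESeq2 called 1 pathway gene, Fasn. The Abcg5 to Abcg8 difference ran from 0.0004 to 0.28 without 1 library. The cause of these shifts was not tested. With 2 distinct control libraries, small changes cannot be resolved.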

Other observations

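Some genes of sterol and lipid synthesis differed between mice of 1 genotype, being higher in control replicate 1 than in control replicate 3 and lowest in knockout replicate 3 among the knockout libraries, an order that 18.7% of all tested genes had. Hmgcs1, an early enzyme of sterol synthesis, had 325, 445 and 145 CPM in the knockout livers and 423 and 159 CPM in the control livers. Scd1, the stearoyl-CoA desaturase, had 14910, 15290 and 5774 CPM in the knockout livers and 10420 and 6292 CPM in the control livers, and Pltp, the phospholipid transfer protein, 51.0, 50.2 and 14.1 CPM in the knockout livers and 33.5 and 15.6 CPM in the control livers. Of the members 2 of 10, Lpcat3 and Npc2, had the same order, a share near that of all genes and so no result about the members. Abcg5 had the opposite one, with 145 CPM in knockout replicate 3 as its highest knockout value and 107.5 CPM in control replicate 3 as its higher control value. These genes were picked after their values were seen, and the cause was not tested.

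Among the canalicular transporters, Abcg2, which exports conjugated compounds, had 110.1, 111 and 105 CPM in the knockout livers and 54.3 and 118 CPM in the control livers. Control replicate 1 stood apart from the other libraries in this gene, and the log2 fold change was 0.34 (SE 0.30).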
